A study of Mus musculus with 23 samples.

Results

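The 9 genes described here, Gpa33, Cdh17, Pllp, Prr15l, Degs2, Tm6sf2, C4bp, Rnf186 and Cybrd1, were picked by symbol from the 27207 genes counted in mouse pancreatic ductal adenocarcinoma (PDAC) cells and organoids. They were listed as a gut-like differentiation set of mature organoids with their levels in these libraries already known, so the comparisons of mature organoids with day 7 and with 2D cells are given as descriptions, without a test. Between groups of mature organoids single genes are tested, but the counts of called genes are descriptions for the same reason. Bulk RNA of 23 libraries in 6 groups was sequenced from the 3′ end. KC tumor cells, 1 line that carries the pancreatic driver Ptf1a Cre/+, were grown as 2D cells (n = 6), in Matrigel to day 13 (n = 3), in floating type I collagen gels to day 7 (n = 3), and in the same gels to day 13 in batch 1 (n = 5) and again in batch 2 (n = 3). KPC tumor cells, 1 line of another genotype that carries the pancreatic driver Pdx1 Cre/+, were grown in collagen to day 13 in batch 2 (n = 3). All other groups belong to batch 1, genotype and line are 1 factor, and 2D cells were lysed directly whereas organoids first passed a collagenase digestion.

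The intestinal epithelium renews from crypt stem cells, and its daughter cells mature while they move up, build a brush border of microvilli and switch on genes for absorbing lipid, iron and sugar. The homeobox factor Cdx2 and the nuclear receptors of the Hnf4 family drive much of this program. Pancreatic tumors of the classical type are known to express gut and stomach genes, and several of the genes listed here are used as markers of the intestinal lineage. By role they fall into surface and membrane proteins (Gpa33, Cdh17, Pllp), lipid enzymes and carriers (Degs2, Tm6sf2), a ferric reductase (Cybrd1), a ubiquitin ligase (Rnf186), a complement inhibitor (C4bp) and a proline-rich protein of little known function (Prr15l).

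Library totals ran from 1221451 to 2471058 counts with a median of 1845921, and levels are given as CPM, counts scaled to a common library size with edgeR's TMM factors. Where no UMI was counted, up to 3 may have been missed, which is 1.16 to 3.22 CPM depending on the library. The 2D libraries fell into separate sets, replicates 1 to 3 and replicates 4 to 6, with scaling factors down to 0.738 in the first set. The median of the 9 genes, the Cdh17 difference and the brush border count against 2D are also given for each set. Other results against 2D are given over all 2D libraries only. The replicate labels do not say whether libraries came from separate cultures. The study's figure legends give the Matrigel and collagen libraries of day 13 as 3 and 5 independent experiments, and those of day 7 as 3 individual experiments. All libraries of a genotype come from 1 line, so that p-values measure only the spread between these libraries. Of all genes, 11144 passed the filter on low counts, and so did all 9 of the listed genes. In bulk RNA, fewer cells of a type and less RNA per cell cannot be told apart.

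The genes lie apart from each other in GRCm38 and are all annotated as protein coding. Gpa33 spans chr1:166130238-166166510 on the plus strand and C4bp chr1:130634773-130661632 on the minus strand. Cybrd1 lies at chr2:71117923-71142926 (plus), and Cdh17 at chr4:11758147-11817895 (plus) shares its chromosome with Rnf186 at chr4:138967112-138968360 (plus). Tm6sf2 at chr8:70072924-70080066 (plus) and Pllp at chr8:94674894-94696278 (minus) share another. Prr15l lies at chr11:96928104-96937830 (plus) and Degs2 at chr12:108678711-108702315 (minus). The 3′ end of Pllp overlaps the antisense gene Gm45767 over 288 bases, which had 1 to 9 counts per library. Whether the counting used strand is not given in the sources used here. C4bp has a pseudogene copy, C4bp-ps1, in its neighborhood, which was not analysed here, so that reads of the pair could have been shared and the C4bp level is uncertain to that extent.

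RefSeq promoters, 250 bases before to 50 bases after the annotated start on GRCm38.p6, were matched for 6 of the 9 genes, C4bp, Gpa33, Cybrd1, Rnf186, Pllp and Degs2. They were searched on both strands for letters typical of sites of the gut factors. The HNF4 letters CAAAGTC were found in 2 of the 6 promoters, Gpa33 and Rnf186, and in 4.44% of 32851 promoters in the table. The CDX letters TTTATNG and the GATA letters AGATAA were found in 0 of the 6 windows, against 10.9% and 11.2% of all promoters. The 250 bases before the start are printed for 3 genes that followed a like time course and have promoters of different make-up. Rnf186 (chr4:138966869-138967118, plus strand) carries the HNF4 letters, and C4bp (chr1:130661619-130661868, minus strand) and Degs2 (chr12:108702307-108702556, minus strand), which lie at opposite ends of base composition, hold no match. They are written 5′ to 3′ along the gene, with the motif match in capitals.
Rnf186: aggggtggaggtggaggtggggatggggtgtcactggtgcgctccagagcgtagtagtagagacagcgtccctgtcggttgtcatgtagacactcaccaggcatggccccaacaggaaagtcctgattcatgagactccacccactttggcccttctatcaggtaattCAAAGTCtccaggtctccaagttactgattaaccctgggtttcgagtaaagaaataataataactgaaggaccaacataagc
C4bp: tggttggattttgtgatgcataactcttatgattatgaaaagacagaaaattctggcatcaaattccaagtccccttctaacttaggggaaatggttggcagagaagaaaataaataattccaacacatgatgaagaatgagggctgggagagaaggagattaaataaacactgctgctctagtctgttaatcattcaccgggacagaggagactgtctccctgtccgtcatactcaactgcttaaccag
Degs2: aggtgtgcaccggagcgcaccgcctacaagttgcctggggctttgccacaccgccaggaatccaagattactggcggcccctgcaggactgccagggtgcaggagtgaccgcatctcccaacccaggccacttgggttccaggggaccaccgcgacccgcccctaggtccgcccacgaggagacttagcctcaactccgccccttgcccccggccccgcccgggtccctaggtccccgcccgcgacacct
In Rnf186, CAAAGTC starts 82 bases before the start site and ends 76 bases before it. The Gpa33 match lies 36 to 42 bases after the start, on the reverse strand, and outside the printed stretch. Base composition spread widely among the 6 promoters. The 250 bases of C4bp held 40.8% G and C and 2 CpG dinucleotides, and those of Rnf186 50.4% and 5, whereas Degs2 reached 69.2% with 18 CpG and Cybrd1 69.2% with 19. The median over all promoters was 52.4% and 6 CpG. A match is only a run of letters and does not show that a factor binds there.

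Across the 6 groups, 8 of the 9 genes had their lowest group mean at day 7 and were high in every group of KC organoids at day 13, and Cdh17 went the other way. In KC collagen organoids of batch 1, log2 fold changes of day 13 against day 7 ran from 2.43 for Pllp to 5.23 for Cybrd1 (5.89 without day 7 replicate 3, which held 3 counts of it) among these 8 genes and were -0.55 for Cdh17. The median of the 9 genes was 3.53, beside -0.01 over all tested genes. Against 2D cells the values ran from 0.99 for Prr15l to 3.25 for Cybrd1 with a median of 2.54, and the median was 2.54 with 2D replicates 1 to 3 and 2.49 with replicates 4 to 6 set aside. Every day 13 library lay above every day 7 library for 8 of the 9 genes, a pattern shown by 22.9% of all tested genes (25.4% in reverse, as for Cdh17), and every day 13 library lay above all 2D libraries for 9 of 9, shown by 10.4% of all tested genes. These are the differences for which the genes were listed, and nothing is read from the counts. Both comparisons share the day 13 libraries of batch 1. The plot of levels by group shows each library.

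**Figure D1:**
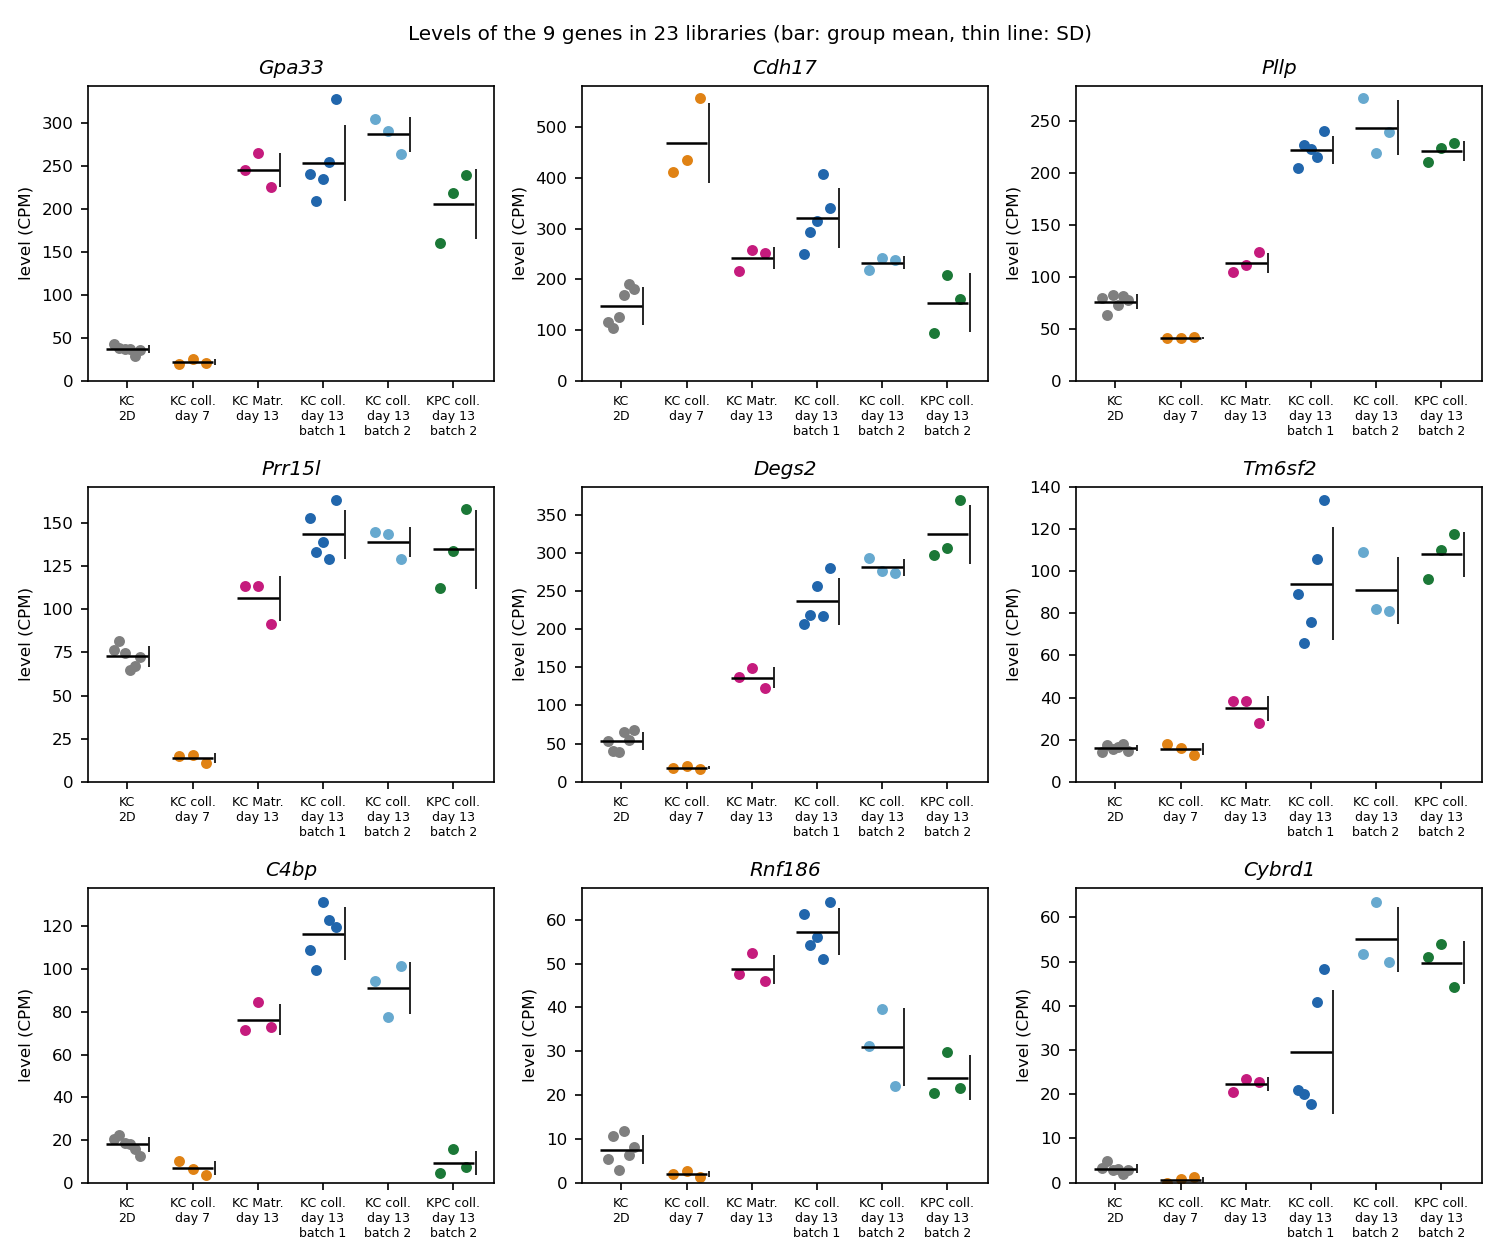
Level in CPM (vertical axis, starting at 0) of each of the 9 genes in every library, by group on the horizontal axis. Points are libraries, thick bars the group means and thin lines the SD. Gpa33 lies between 161 and 328 CPM in every day 13 library and between 19.1 and 43.0 CPM in 2D and day 7 libraries, Cdh17 is highest at day 7, and C4bp is at 4.47 to 15.6 CPM in KPC organoids.

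Gpa33 encodes the A33 antigen, an immunoglobulin superfamily protein on the surface of intestinal epithelial cells. Its levels were 19.1, 25.6 and 20.9 CPM in the day 7 libraries, and in 2D cells they ran from 28.3 over a median of 37.2 to 43.0 CPM. In collagen at day 13 the batch 1 libraries held 241, 209.6, 235, 255 and 328 CPM and those of batch 2 held 305, 291 and 265 CPM. The order of the groups was flat on top and steep below. Batch 2 collagen, batch 1 collagen, Matrigel (246, 266 and 226 CPM) and KPC organoids (161, 218 and 239.7 CPM) overlapped with their neighbors, whereas 2D and day 7 lay apart from these and from each other. Day 13 batch 1 was 11.5-fold above day 7 and 7.02-fold above 2D cells.

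Cdh17 encodes liver-intestine cadherin, a cell adhesion protein of the gut epithelium. It did not follow the label of a gene of mature organoids. Day 7 libraries held 412, 435 and 558 CPM, more than any other library, and day 13 collagen libraries of batch 1 held 249, 293, 315, 408 and 339.9 CPM. The lowest levels were those of 2D cells, from 105 over 148 to 192 CPM, and of KPC organoids with 93.3, 208 and 161 CPM, which overlapped. The 2D sets differed for this gene, with 105 to 126 CPM in replicates 1 to 3 and 169 to 192 CPM in replicates 4 to 6. The log2 fold change of day 13 against 2D was 1.10 over all 2D libraries, 0.86 with replicates 1 to 3 set aside and 1.46 with replicates 4 to 6 set aside.

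Pllp encodes plasmolipin, a membrane-spanning protein of myelin and of the apical endosomes of epithelia. The day 7 libraries held 40.7, 40.7 and 41.8 CPM, 2D cells 63.1 to 82.8 CPM with a median of 78.6, and Matrigel organoids 105, 112 and 124 CPM. Collagen organoids at day 13 stood highest, with 204 to 241 CPM in batch 1, 272, 219.6 and 239 CPM in batch 2, and 211, 224 and 229 CPM in KPC organoids. The 3 collagen groups at day 13 overlapped, and below them Matrigel, 2D and day 7 followed as separate steps.

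Degs2 encodes a desaturase and hydroxylase that makes phytoceramide, a lipid rich in intestinal and skin epithelium. The day 7 libraries held 18.1, 20.9 and 16.6 CPM and 2D cells 38.4 to 67.7 CPM with a median of 54.2. Matrigel organoids held 137, 149.5 and 123 CPM, and batch 1 collagen organoids 207, 219, 257, 218 and 281 CPM. KPC organoids were highest of all groups with 297, 306 and 368 CPM, above each batch 2 KC library at 293, 275 and 273 CPM. Tm6sf2 encodes an endoplasmic reticulum protein that helps load lipid onto lipoproteins in liver and gut. It was the only one of the 9 genes whose 2D libraries (13.96 to 17.8 CPM, median 16.1) overlapped with day 7 (18.1, 15.9 and 12.8 CPM). At day 13 Tm6sf2 reached 38.2, 38.4 and 28.0 CPM in Matrigel and 89.0, 65.7, 76.1, 106 and 134 CPM in batch 1 collagen, and these groups did not overlap.

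Cybrd1 encodes duodenal cytochrome b, which reduces ferric iron at the brush border before uptake. Day 7 libraries held 0, 2 and 3 counts, at the detection limit, and 2D libraries 3 to 7 counts. By the summed counts of each group, day 13 collagen of batch 1 (307 counts) stood 40.9-fold above day 7 (5 counts), with a 95% counting interval of 17.3 to 127, and 9.72-fold above 2D (27 counts), with an interval of 6.55 to 14.99. These intervals cover counting error only. Within batch 1 collagen the Cybrd1 libraries split, with 20.9, 20.1 and 17.7 CPM in replicates 1 to 3 and 40.8 and 48.3 CPM in replicates 4 and 5. The 3 batch 2 libraries held 51.6, 63.4 and 49.98 CPM and KPC libraries 51.1, 53.9 and 44.3 CPM, both above Matrigel at 20.5, 23.5 and 22.7 CPM.

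Rnf186 encodes a ubiquitin ligase of the endoplasmic reticulum that is found mainly in the colon epithelium. It rested on 3 to 7 counts per library at day 7 and 3 to 26 in 2D cells. Batch 1 collagen organoids held 61.2, 54.2, 55.99, 51.1 and 64.1 CPM, 28.4-fold above day 7 by summed counts with a 95% counting interval of 16.8 to 52.3. Matrigel organoids held 47.6, 52.3 and 46.0 CPM and overlapped with them, whereas batch 2 KC (31.1, 39.7 and 22.0 CPM) and KPC organoids (20.4, 29.9 and 21.6 CPM) lay below and overlapped with each other. C4bp encodes the alpha chain of the inhibitor that binds complement C4b, known mainly from liver. Its levels were 10.3, 6.20 and 3.84 CPM at day 7, 12.4 to 22.3 CPM in 2D cells, and 109, 99.7, 132, 123 and 119.8 CPM in batch 1 collagen at day 13. C4bp stood at 94.7, 77.4 and 101 CPM in batch 2 KC organoids but at 4.47, 15.6 and 7.39 CPM in KPC organoids, a range that overlaps with day 7 and with 2D. Prr15l held 64.8 to 81.5 CPM in 2D and 129 to 163 CPM in batch 1 collagen, and dropped to 15.2, 15.5 and 10.7 CPM at day 7.

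The genes thus did not rise steadily from 2D over day 7 to day 13. Every 2D library stood above every day 7 library for 7 of the 9 genes (all but Cdh17 and Tm6sf2), a pattern shown by 15% of all tested genes, and below every day 7 library for Cdh17, as for 17.2% of all tested genes. Over the 23 libraries, Pearson's r of log2 CPM between Pllp and Degs2 was 0.97, and Cdh17 had r from -0.40 to 0.21 with the other 8 genes. The libraries share groups, depth and handling within groups, and these values are descriptions.

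Matrigel and collagen organoids, both of KC cells at day 13 in batch 1, were compared to ask how the matrix bears on genes that both cultures express. Pllp, Degs2, Tm6sf2, C4bp and Prr15l were lower in Matrigel, and Gpa33, Cdh17, Rnf186 and Cybrd1 did not pass the test. With edgeR's quasi-likelihood test and Benjamini-Hochberg adjustment over all tested genes, 5 of the 9 genes were lower in Matrigel at an adjusted p under 0.1 and 0 were higher. Among all tested genes 12.9% were called, 6.29% as lower and 6.62% as higher. The 9 genes were listed with their levels in these same libraries known, so the count is a description and no test of the set. The largest difference was that of Tm6sf2, with 34.8 ± 5.94 CPM in Matrigel (SD, n = 3) against 94.1 ± 26.8 CPM in collagen (SD, n = 5), a log2 fold change of -1.42 (SE 0.18, edgeR adjusted p = 6.03e-06). Pllp differed by -0.97 (SE 0.10, adjusted p = 3.50e-07) and Degs2 by -0.79 (SE 0.15, adjusted p = 6.09e-04). The calls of C4bp (-0.61, adjusted p = 0.0292) and Prr15l (-0.43, adjusted p = 0.0280) were less firm. C4bp lost its call without Matrigel replicate 1 (adjusted p = 0.146) or 3 (0.113), or with both collagen batches as the reference (log2 fold change -0.49, adjusted p = 0.141), and Prr15l without Matrigel replicate 3 (0.177), with library size alone (0.145) or with no filter on low counts (0.110). Gpa33 (-0.04, adjusted p = 0.905), Cdh17 (-0.41, 0.253), Rnf186 (-0.23, 0.494) and Cybrd1 (-0.41, 0.388) were not called, although Cdh17 passed where only the compared groups were fitted (-0.38, adjusted p = 0.0567). The Cybrd1 levels in Matrigel lay beside collagen replicates 1 to 3 and below replicates 4 and 5.

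Some other gut and stomach genes stood lower in Matrigel as well. Of 24 tested brush border and enterocyte genes, 7 were called lower and 0 higher, with a median log2 fold change of -0.36 beside -0.01 over all genes, and 17 were not called. Of 11 tested gastric and pit cell markers, 5 were called lower, 0 higher and 6 not called, and their summed level was 12998 to 14466 CPM in Matrigel against 21263 to 32304 CPM in collagen. Goblet, Paneth and endocrine markers showed no such lean, with 2 of 5 called higher and 2 lower and sums of 5175 to 6319.7 CPM in Matrigel against 4425 to 5663 CPM in collagen, and of 9 lipoprotein assembly genes 2 were higher and 3 lower. Pancreatic ductal markers summed to 18182 to 20214 CPM in Matrigel and 18354 to 20483 CPM in collagen, and 7 leukocyte and endothelial genes, 6 of them with at most 3 counts in every library, to 31.1 to 36.6 CPM and 13.0 to 23.1 CPM. Although the ductal sums overlapped, 3 of the 10 ductal genes passed the test with higher levels in Matrigel and 0 with lower ones, with Epcam at 165 ± 15.1 against 56.2 ± 13.4 CPM (1.56, edgeR adjusted p = 8.64e-07), and Cd68 stood at 32.9 ± 3.15 against 16.3 ± 4.45 CPM (1.02, adjusted p = 0.00836). The part of these markers in the difference of the 9 genes was not tested.

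KPC and KC organoids, both in collagen at day 13 in batch 2, were compared for the effect of line and genotype, which cannot be told apart. C4bp showed the largest difference of the 9 genes. Its counts were 7, 26 and 14 in KPC and 143, 111 and 152 in KC libraries, which gave 9.14 ± 5.75 against 91.1 ± 12.3 CPM (SD, n = 3 each), a log2 fold change of -3.31 (SE 0.27, edgeR adjusted p = 2.47e-09). The call held under every alternative that tested C4bp. With the same test, 3 of the 9 genes were called, all lower in KPC, beside 19.9% of all tested genes called, 10.4% as lower and 9.58% as higher. The others were Gpa33 with 206 ± 40.7 against 287 ± 20.6 CPM (log2 fold change -0.47, SE 0.16, adjusted p = 0.0423) and Cdh17 with 154 ± 57.8 against 233 ± 13.2 CPM (-0.59, SE 0.23, adjusted p = 0.0917). Gpa33 lost its call without KPC replicate 1 (adjusted p = 0.224), without KC replicate 1 (0.130) and with library size alone (0.185), and Cdh17 did not pass in 5 of the 6 fits without 1 library (adjusted p up to 0.383) and with library size alone (0.334). Scaling by library size alone moved the median of all genes by 0.12 on the log2 scale in this comparison.

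The other 6 genes did not pass, with log2 fold changes from -0.36 for Rnf186 to 0.25 for Tm6sf2. Degs2, which was highest in KPC, differed by 0.21 (adjusted p = 0.436) although its KPC libraries all lay above the KC ones, as did those of 18.9% of all tested genes. With the 8 KC libraries of both batches as the reference, Degs2 (0.36, adjusted p = 0.0804) and Rnf186 (-0.995, adjusted p = 0.0100) were called as well, a fit that mixes line with batch. Of the brush border and enterocyte genes, 3 were called higher and 7 lower in KPC of 24 tested, and of the intestinal transcription factors 4 and 4 of 18. Sums of other markers were lower in KPC than in KC libraries of batch 2, with 12227 to 13905 against 19013 to 21164.5 CPM for ductal, 1548 to 2249.8 against 4757 to 5128 CPM for goblet, Paneth and endocrine, and 33338 to 40974 against 45818 to 50344 CPM for gastric markers. Single genes were mixed. Of 10 ductal genes 1 was called higher in KPC, 2 lower and 7 not called. Of 5 goblet, Paneth and endocrine genes 1 was higher and 3 lower, and of 11 gastric genes 1 was higher and 5 lower. Over all tested genes 9.58% were higher and 10.4% lower. The part of these markers in the differences of the 9 genes was not tested.

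The same KC cells, matrix and day were compared in batch 2 and batch 1, to ask how far the levels vary between batches. Rnf186 and Cybrd1 differed in opposite directions. Rnf186 was lower in batch 2, with a log2 fold change of -0.89 (SE 0.19, edgeR adjusted p = 0.00106) and Cybrd1 higher, with 0.90 (SE 0.24, adjusted p = 0.00491). Cdh17 was lower as well, with -0.46 (SE 0.21, adjusted p = 0.0933), but did not pass in 6 of the 8 fits without 1 library (adjusted p up to 0.265). In all, 3 of 9 genes were called, beside 37.3% of all tested genes (19.3% higher and 18.1% lower in batch 2). The Cybrd1 libraries of batch 1 replicates 4 and 5 (40.8 and 48.3 CPM) lay nearer to batch 2 (49.98 to 63.4 CPM) than to the other 3 libraries of their own batch. For Gpa33, Pllp, Prr15l, Degs2 and Tm6sf2, whose log2 differences between batches ran from -0.05 to 0.25, the libraries of the batches overlapped. C4bp libraries overlapped too, at 91.1 ± 12.3 CPM in batch 2 and 117 ± 12.5 CPM in batch 1. C4bp was not called, but passed as lower with library size alone (-0.49, edgeR adjusted p = 0.0608) and in a fit of the compared groups alone (-0.34, adjusted p = 0.0377). In that last fit Degs2 passed as higher (0.27, adjusted p = 0.0497).

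**Figure D2:**
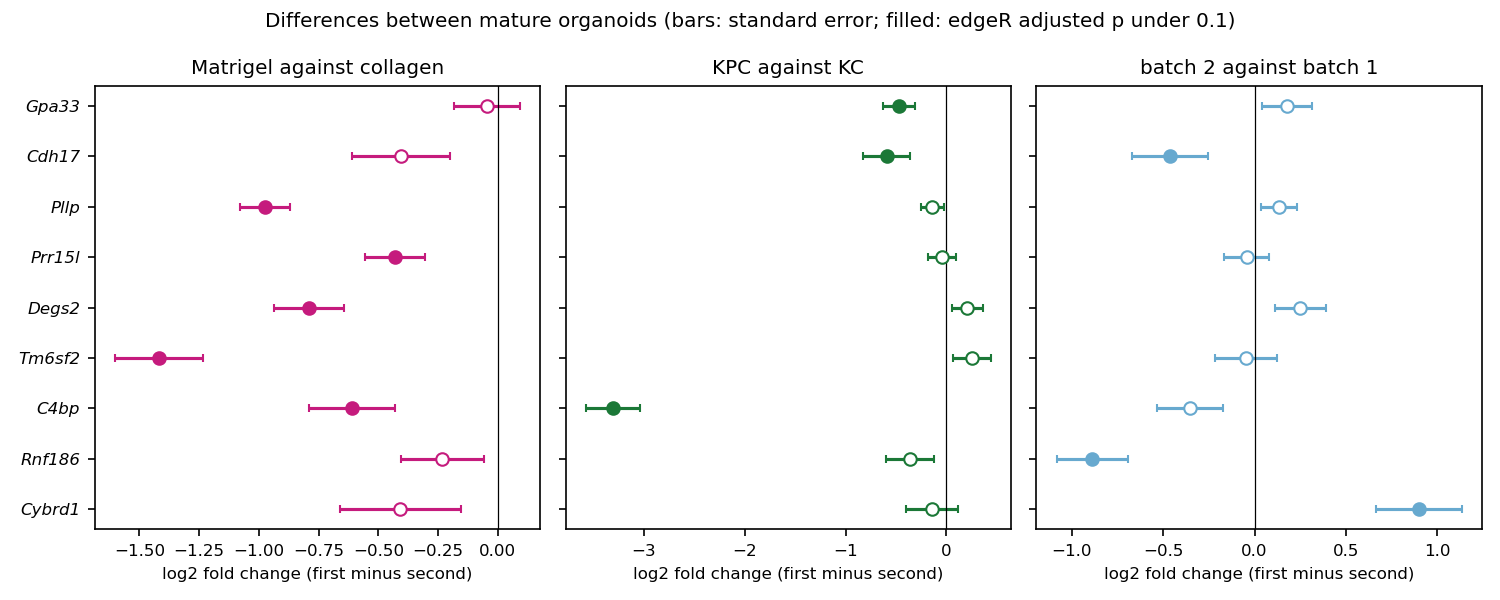
Log2 fold changes (horizontal axes) of the 9 genes in the 3 comparisons between groups of mature organoids, each with its standard error as a bar, and filled where the edgeR adjusted p is under 0.1. All 5 genes called in Matrigel lie left of 0, C4bp at -3.31 stands far from the others in KPC, and Rnf186 and Cybrd1 lie on opposite sides between batches.

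The relatives and partners of the 9 genes were followed between day 7 and day 13. Degs1, the widely expressed desaturase that makes ceramide itself, was called higher in batch 1, but by much less than the log2 fold change of 3.66 of Degs2. Degs1 stood at 187 ± 8.53 CPM at day 7 (SD, n = 3) and 224 ± 31.3 CPM at day 13 (SD, n = 5; log2 fold change 0.26, edgeR adjusted p = 0.0568). In KC organoids of batch 2 it held 147, 127 and 149 CPM, below the day 7 libraries at 179 to 196 CPM. Of 20 tested ceramide synthesis genes 8 were higher and 3 lower at day 13, the share called over all tested genes being 55.1%. Against 2D cells 6 were higher and 8 lower, beside 23.3% and 26.3% of all tested genes. The largest change was that of Sptssb, a small subunit of the first enzyme of sphingolipid synthesis, with 3.56 (edgeR adjusted p = 7.48e-12). The ceramide synthase Cers6 (1.25, adjusted p = 4.21e-04), the regulator Ormdl3 (1.24, adjusted p = 1.69e-06) and the fatty acid hydroxylase Fa2h (1.24, adjusted p = 0.00248) rose as well.

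Iron genes went largely the other way from Cybrd1 between day 7 and day 13. Of 16 tested, 10 were lower at day 13 and 3 higher, beside 28.1% and 27.1% of all tested genes. Their median log2 fold change was -0.45. Against 2D cells 2 were higher at day 13, 3 lower and 11 not called, with a median of -0.03, beside 23.3% higher and 26.3% lower of all tested genes. The ferritin chains Fth1 (-0.80) and Ftl1 (-0.78), the transferrin receptor Tfrc (-0.74), the divalent metal importer Slc11a2 (-0.35) and Steap1 (-1.16) fell from day 7, with edgeR adjusted p from 6.60e-07 to 0.0554. At day 13 Ftl1 held 897 to 1373 CPM in KC batch 1 but 159 to 194 CPM in batch 2. Slc40a1, the iron exporter ferroportin, rose from 11.2 ± 1.21 to 53.1 ± 7.40 CPM (2.24, adjusted p = 8.93e-07), and the Cybrd1 relative Cyb561 by 0.997 (adjusted p = 3.07e-07). Slc40a1 was not above 2D cells, which held 64.2 ± 19.8 CPM (SD, n = 6). Heph, the ferroxidase that works with it in the gut, had at most 2 counts in any library.

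Of 9 tested lipoprotein assembly genes, 5 were higher at day 13 and 0 lower, beside 27.1% and 28.1% of all tested genes. Against 2D cells 5 were higher and 1 lower, beside 23.3% and 26.3% of all tested genes. The fatty acid binding proteins Fabp1 and Fabp2 of enterocytes rose by 3.21 (adjusted p = 1.03e-10) and 2.01 (adjusted p = 1.20e-05), and the triglyceride enzyme Dgat1 by 1.35 (adjusted p = 1.27e-07). Apob, the protein core of the particles, did not pass (-0.06, adjusted p = 0.865), and Mttp, which loads lipid onto it, had at most 11 counts in any library. Tm6sf1, the relative of Tm6sf2, had at most 1 count. Among family relatives, Prr15, a relative of Prr15l, rose by 3.60 (adjusted p = 9.71e-08) and Mal2, which like Pllp has 4 membrane spans, by 2.76 (adjusted p = 4.39e-07), and 10 of 15 tested were higher and 2 lower. Cdh1, E-cadherin, rose by 0.30 (adjusted p = 0.0992), whereas Cdh17 levels were lower, and Cdh16 had at most 2 counts. Of 5 tested complement regulators 4 were higher, among them Cd55 (1.45, adjusted p = 4.62e-06) and Clu (0.92, adjusted p = 1.41e-06), and 0 were lower. Against 2D cells 1 of the 5, Cd55, was higher and 2 were lower, beside 23.3% and 26.3% of all tested genes. Clu was among the lower ones, with 13703 ± 1067 CPM in 2D (SD, n = 6) and 8120.0 ± 852 CPM at day 13 (SD, n = 5; log2 fold change -0.75, edgeR adjusted p = 2.51e-06). In KPC organoids Cd55 was at 62.4 ± 2.65 CPM (SD, n = 3), the highest of the 6 groups, where C4bp was near its lowest.

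**Figure D3:**
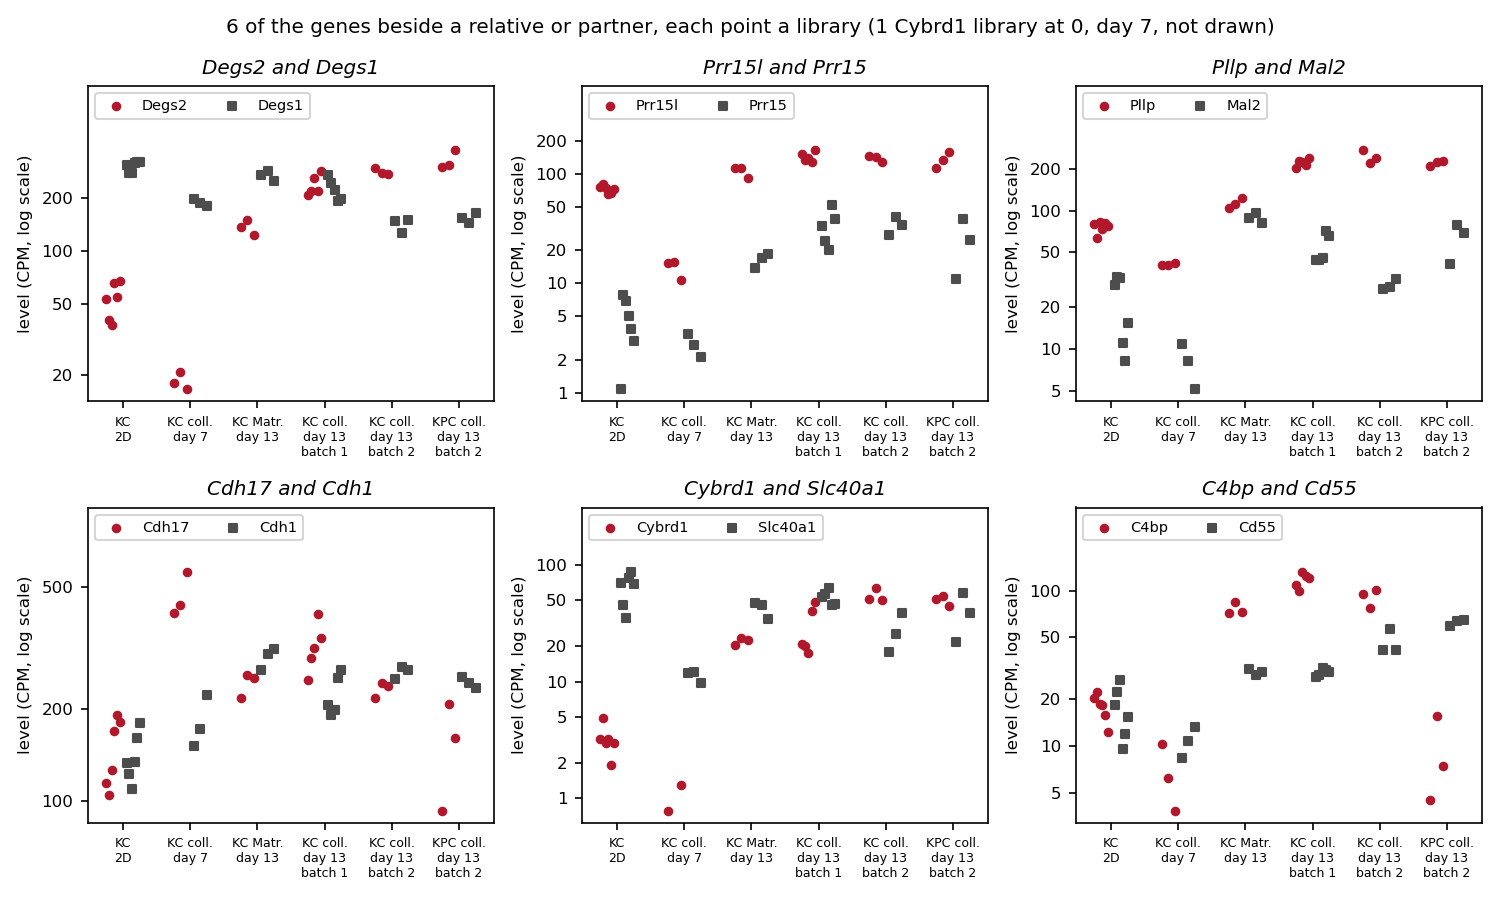
Levels in CPM (log axis) of 6 of the 9 genes (circles) beside a relative or partner (squares), each point a library, by group. Degs1 stays between 127 and 319 CPM while Degs2 runs from 16.6 to 368 CPM, and Prr15 and Mal2 are low at day 7 as Prr15l and Pllp are. The 3′ counts are not divided by gene length, so heights are not compared between genes.

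Genes of the brush border and of enterocytes were counted beside the 9 genes, which were left out of the list. Of 24 tested, 22 were higher at day 13 than at day 7 and 1 was lower, beside 27.1% and 28.1% of all tested genes (55.1% in either direction), and their median log2 fold change was 2.35 (2.23 with genes at the detection limit held at their bound). The list was drawn up with results of these data known, and some of its genes, such as Cdhr5 with 3 to 7 counts and Espn with 0 to 1 count per library at day 7, passed the filter on low counts through the groups in which they were high, so that the count is a description and no test of the gut-like label. With at least 10 counts required in each library, 11 were called higher. The microvillus cadherin Cdhr5 rose from 1.98 ± 0.717 to 34.1 ± 4.41 CPM (4.05, adjusted p = 2.65e-09), the brush border myosin Myo1a from 2.53 ± 1.30 to 40.0 ± 3.17 CPM (3.92, adjusted p = 3.78e-10) and Phgr1 from 40.7 ± 13.8 to 418 ± 85.5 CPM (3.36, adjusted p = 1.06e-10). Villin, Vil1, which bundles actin in microvilli, rose by 2.85 (adjusted p = 5.88e-11) and Krt20, a keratin of mature gut epithelium, by 1.89 (adjusted p = 8.09e-10). Eps8 was the gene that fell, by 0.27 on the log2 scale (adjusted p = 0.0807). Against 2D cells, 22 of the 24 were higher at day 13 and 0 lower, beside 23.3% and 26.3% of all tested genes, and the count was 22 also with either set of 2D libraries set aside. Several digestive enzymes and transporters were at the detection limit. Of the 43 genes of the list in the table, 12 had at most 3 counts in every library, among them the disaccharidases Sis, Lct and Treh and the transporters Slc15a1, Slc2a2 and Slc2a5. Alpi, the intestinal alkaline phosphatase, was not among these, with 3.22 ± 0.816 CPM at day 7 (SD, n = 3), 27.1 ± 9.87 CPM at day 13 in batch 1 (SD, n = 5; log2 fold change 3.07, edgeR adjusted p = 2.09e-06) and 81.7 ± 5.41 CPM in batch 2 (SD, n = 3). Intestinal stem cell markers summed to 11.8 to 26.2 CPM over all libraries, and 0 of the 2 tested passed.

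Of 18 tested intestinal transcription factors, 12 were higher at day 13 than at day 7 and 1, Foxa1, was lower, with a median of 0.85. Over all tested genes 27.1% were higher and 28.1% lower. This list too was drawn up with results of these data known, so that the count is a description. Hnf4g rose from 1.05 ± 0.805 to 15.99 ± 2.84 CPM (3.90, adjusted p = 9.25e-08), Isx, a gut homeobox factor, by 4.05 (adjusted p = 6.84e-08), Foxa3 by 3.36 (adjusted p = 6.52e-08) and Elf3 by 2.21 (adjusted p = 3.25e-07). The day 7 mean of Hnf4g is below the detection limit of these libraries, 1.16 to 1.47 CPM, so that its fold change is uncertain. Hnf4g passed the filter on low counts through groups in which it was higher. Cdx2 and Hnf4a did not pass the test. Cdx2 stood at 64.5 ± 10.3 CPM at day 7 and 60.4 ± 5.50 CPM at day 13 in batch 1 (-0.09, edgeR adjusted p = 0.699). Both lay above 2D cells with 29.2 ± 7.94 CPM. The KC organoids of batch 2, with 26.7 to 31.8 CPM, lay within the range of 2D cells, 18.3 to 37.1 CPM. Hnf4a stood at 92.7 CPM at day 7 and 115 CPM at day 13 on average (0.31, edgeR adjusted p = 0.213). Cdx1 was not analysed here. Between Matrigel and collagen of batch 1 Cdx2 differed by -0.63 (edgeR adjusted p = 0.0339). It was higher in KPC (59.5 ± 19.4 CPM) than in KC organoids of batch 2 (29.7 ± 2.70 CPM, edgeR adjusted p = 0.00286). The KPC libraries, at 42.8 to 80.8 CPM, overlapped with KC organoids of batch 1, at 55.5 to 69.4 CPM.

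Markers of other epithelia moved with the 9 genes. Of 11 tested gastric and pit cell markers 8 were higher at day 13 than at day 7 and 0 lower, led by the gastrokines Gkn1 (3.91, adjusted p = 3.95e-10) and Gkn3 (3.62, adjusted p = 6.47e-11) and the mucin Muc5ac (3.49, adjusted p = 5.02e-10). Their summed level was 4364 to 5224 CPM at day 7 and 21263 to 32304 CPM at day 13, whereas the brush border list summed to 3410.2 to 3434 and 7798 to 8818 CPM. Of 18 listed goblet, Paneth and endocrine markers only 11 were among the counted genes, 3 of them with at most 3 counts in every library. Just 5 passed the filter on low counts, so most of this list was not tested. These 5 were all higher, among them Clca1 (4.08, adjusted p = 1.06e-14), Agr2 (3.28, adjusted p = 1.46e-08) and Tff3 (3.13, adjusted p = 1.55e-08). Of 10 pancreatic ductal markers 4 were higher, with Epcam at 3.27 (adjusted p = 3.85e-10), Sox9 at 1.21 (adjusted p = 3.63e-04) and Spp1 at 0.92 (adjusted p = 7.32e-06), and 2 were lower, the keratins Krt18 (-0.31, adjusted p = 0.0329) and Krt8 (-0.43, adjusted p = 0.0375), so that 6 of 10 were called beside 55.1% of all tested genes. Ductal, stomach and gut genes were thus present side by side at day 13. Non-epithelial and acinar markers were low but not absent, with sums of 34.8 to 210.5 CPM for 9 fibroblast genes, 3.41 to 21.5 CPM for 6 acinar genes and 3.41 to 36.6 CPM for 7 leukocyte and endothelial genes. At most 3 counts in every library were held by 2 of the fibroblast, 4 of the acinar and 6 of the leukocyte and endothelial genes. The collagen gene Col1a2 was detected in every library, at 19.5 to 97.7 CPM, whereas Col1a1 had 0 to 7 counts per library. The macrophage gene Cd68 reached 36.2 CPM in Matrigel. The single tested genes of the last 2 lists, Cela1 (1.56, adjusted p = 0.00167) and Cd68 (1.80, adjusted p = 1.00e-04), were higher at day 13, 0 of the 4 tested fibroblast genes passed, and their part in the result was not tested.

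**Figure D4:**
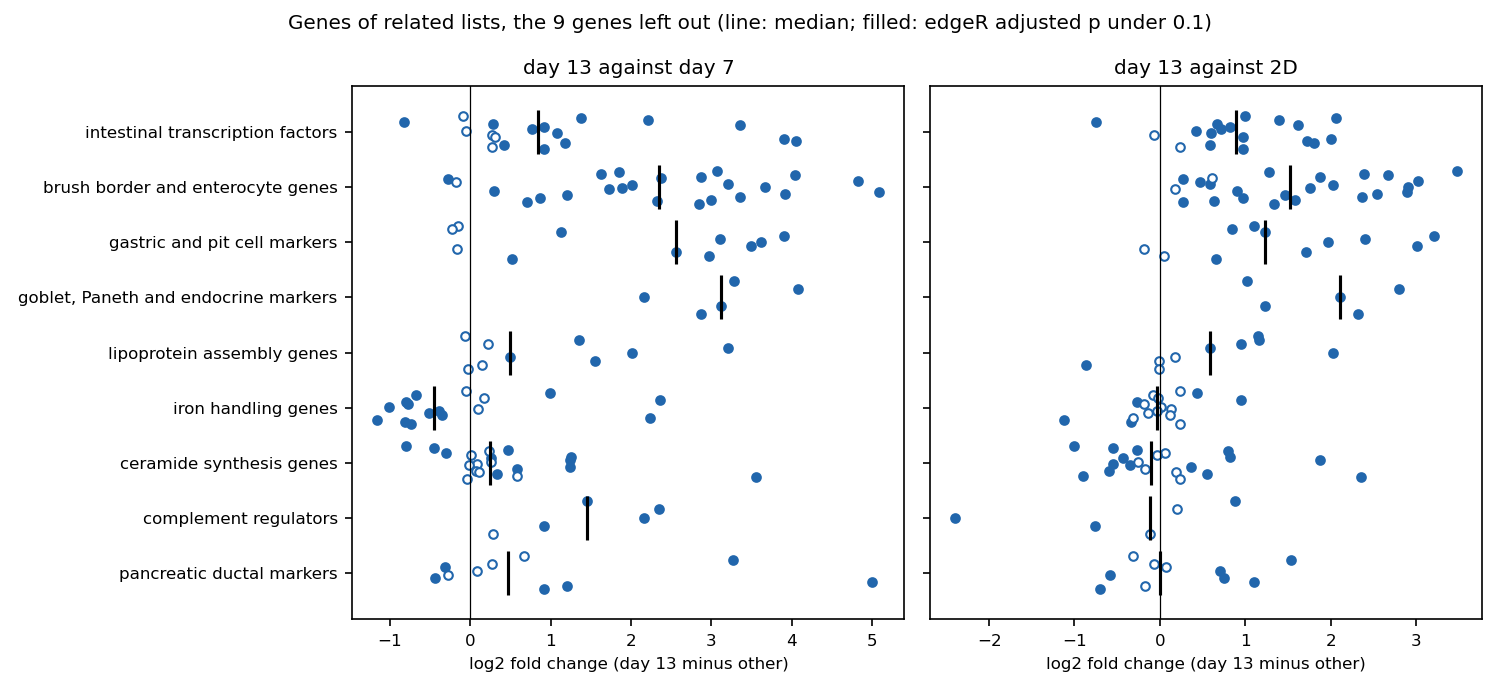
Log2 fold changes (horizontal axes) of the tested genes of 9 related lists, day 13 against day 7 on the left and day 13 against 2D on the right, with the 9 genes left out. Each point is a gene, filled where the edgeR adjusted p is under 0.1, and the vertical mark is the median of the list. The brush border list has its median at 2.35 on the left and 1.53 on the right, and the iron list at -0.45 and -0.03.

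Among tested genes other than the 9, those whose log2 CPM followed the mean z score of the 9 genes most closely over the 23 libraries were Serpinb1a (Pearson's r 0.98), Tmem8 (0.98), Cyp2c65 (0.97), Cyp2s1 (0.97) and Atp2a3 (0.97). For single genes the closest outside the 9 were Car2, carbonic anhydrase of many secretory and absorptive epithelia, with Gpa33 (0.98), Sptssb with Pllp (0.97), Elmo3 with Prr15l (0.97), Ms4a8a with Degs2 (0.97), Mettl7b with Tm6sf2 (0.97), Plpp3 with Cybrd1 (0.98), Clca1 with Rnf186 (0.96) and Teddm3 with C4bp (0.94). Teddm3 was at 33.2 CPM in KC and 5.53 CPM in KPC organoids of batch 2 on average. Cdh17 found its closest partner in the epithelial keratin Krt8 (0.90), which was also highest at day 7, with 2984 CPM on average against 2209 CPM at day 13. These are correlations within 6 groups and carry no test.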

How the data were processed

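Poly(A) RNA of mouse PDAC cells and organoids was reverse transcribed with primers that hold sample barcodes and unique molecular identifiers (UMIs), and 3′ end fragments were sequenced. Per the study's methods, reads were aligned to GRCm38 and UMIs were counted for each gene by the Drop-seq pipeline on a GENCODE annotation. The deposited values are raw UMI counts of 27207 genes in 23 libraries, without normalization by the authors, and each library was assigned to 1 of 6 groups by its labels.

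Counts were analysed in R 4.3.3 with edgeR 4.0.16 (TMM factors, filterByExpr over the 6 groups, glmQLFit and glmQLFTest in 1 fit of all libraries), which kept 11144 genes. Genes with a Benjamini-Hochberg adjusted p under 0.1 were called. The scripts were checked on simulated counts. DESeq2 1.42.0, other scaling, filters, a replicate block and leaving out single libraries were tried as alternatives. Log2 CPM for correlations used a prior count of 2. GENCODE M21 gave gene positions and RefSeq the promoters.

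The 9 genes and the gene lists were chosen with earlier results of these data known, which is why day 13 against day 7 and against 2D carries no test for the 9 genes. Counts of called genes in the other comparisons are descriptions for the same reason. Named from each list were up to 3 called genes with the largest change from day 7 to day 13 and at least 20 CPM in 1 of these groups, and relatives or partners of the 9 genes. Krt20, Eps8, Foxa1, Cela1, Cd68, Col1a1, Col1a2, Alpi, Espn, Krt18, Krt8 and the enzymes and transporters at the detection limit were named after their values were seen. Promoters of Cdh17, Prr15l and Tm6sf2 were not analysed here, and further alleles of the lines, 1 transcription factor and 1 planned motif are not reported here.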

Additional observations from a re-analysis of the deposited data

Results flagged for a closer look

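Within groups of 4 to 10 libraries, the highest and lowest library were tested against Dixon's critical value for 50 genes, the 9 described here and the named relatives and list genes, in 100 pairs of gene and group. A library stood apart in 4 pairs, and chance would give about 1 in 20. None of them concerned the 9 genes. All 4 were in KC collagen organoids at day 13, batch 1. Myo1a, the brush border myosin, was at 34.5 CPM in replicate 2, with the next library at 40.8 CPM. Steap1 was at 16.8 CPM in replicate 5, with the next at 24.9 CPM, and Cyb561 at 73.4 CPM in replicate 4, with the next at 88.8 CPM. The fatty acid hydroxylase Fa2h reached 14.2 CPM in replicate 5, with the next library at 9.09 CPM.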

How the results depend on the processing

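No called difference of the 9 genes changed its sign under the alternatives that set another test, scaling, filter, reference or block, and counts of calls moved as follows. The share of all tested genes called in each alternative is not given here, so that the counts are descriptions and cannot be set against it. In KPC against KC 1 of the 9 genes was called with library size alone and 5 with both collagen batches as the reference, beside 3. Between batches 0 of 6 were called where each library had to hold at least 10 counts of a gene, a filter that leaves Rnf186, Cybrd1 and C4bp untested (Cdh17 had edgeR adjusted p = 0.102), and 5 of 9 in a fit of the compared groups alone, beside 3. With library size alone the median log2 fold change of the 9 genes in day 13 against 2D was 2.74, beside 2.54, and the median of all genes moved by 0.20. With that filter, brush border genes called higher numbered 11 against day 7 and 12 against 2D, beside 22 each, since fewer genes are tested. When single libraries were left out, calls among the 9 genes ranged from 3 to 5 in Matrigel against collagen, 1 to 3 in KPC against KC and 2 to 4 between batches. The median of the 9 genes then ranged from 3.41 to 3.66 against day 7 and from 2.39 to 2.66 against 2D, brush border genes called higher from 22 to 23 and 21 to 23, and transcription factors called higher from 10 to 12. With either 2D set aside, an alternative chosen after seeing the data, the median against 2D was 2.54 or 2.49.

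Replicate numbers did not pair the libraries, since deviations of same-numbered libraries correlated between -0.11 and 0.08. With the replicate block, Cdh17 lost its call between batches (-0.24, edgeR adjusted p = 0.235) and Degs2 gained one (0.35, adjusted p = 0.0487). Depth limits Cybrd1 and Rnf186 at day 7, which rest on 0 to 3 and 3 to 7 counts per library.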
